A study of Mus musculus with 6 samples.

Results

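The genes described here are 46 genes of DNA replication and the cell division cycle, measured in whole testis of mice that lack H3f3b, that carry 1 deleted copy of it, or that are wild type. H3f3b is 1 of the genes that encode histone H3.3, the variant placed on chromatin outside replication. Members were the genes of a fixed symbol list, and every array probe whose deposited symbol was on the list was read. That gave 95 of the 45281 probes on the array, for 44 of the 46 genes. Aurka and Cdt1 had no probe under their listed symbols. Of the 95 probes, 58 passed the detection filter (in at least 1 genotype, both mice with a detection p-value under 0.05), and these measured 35 members out of 14524 genes tested.

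The study profiled a single testis from each of 6 mice by hybridisation to Illumina bead arrays. The groups were H3f3b KO (homozygous deletion), H3f3b HET (1 deleted and 1 intact allele) and WT (2 intact alleles), with 2 mice per genotype, 1 from each of 2 litters, all of the strain C57BL6J. Per the study's design text the mice were 8 weeks old and the deletion came from a floxed allele crossed to Zp3Cre, a Cre driver active in oocytes, so it was present in all cells of the testis. The labels' age field gives an embryonic stage instead, and the spermatid transcript Tnp1 had a deposited signal of 20425 to 21199 in KO, 17553 to 22119 in HET and 22337 to 22407 in WT mice. The labels name no change to H3f3a, which encodes the same protein, in any group.

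Cells that divide load the MCM helicase onto replication origins in G1, fire the origins and copy the genome in S phase, and then use CDK1 with its cyclins to enter division. Transcription of these genes comes in waves: E2F factors drive the replication and G1/S genes, and a later wave of G2/M genes is read through CCAAT boxes and an element called CHR in their promoters. In the testis, mitotic division takes place in spermatogonia and the last S phase precedes meiosis. Spermatocytes then divide through meiosis with much of the same spindle machinery, while spermatids no longer divide.

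The promoters of both waves are shown first, because their motifs are features that the symbol list did not use. Promoter sequences (250 bases before to 50 bases after the gene start, from RefSeq, build GRCm38.p6) were found for 36 of the 46 members. Aurkb, Ccna2, Ccnd1, Ccnd2, Ccne2, Foxm1, Gmnn, Kif20a, Mcm4 and Tpx2 had no entry. Both strands were searched for the E2F letters TTCCCGC and their variants TTGGCGC and TTGCCGC and TTCGCGC, for CCAAT, and for the CHR letters TTTGAA. These motifs may overlap each other. A match is only a match of letters. Among replication, nucleotide and G1/S members, 10 of 17 promoters (58.8%) held an E2F match and 1 of 17 (5.88%) a CHR match. Among G2/M, checkpoint, anaphase and spindle members, 3 of 20 promoters (15%) held an E2F match and 12 of 20 (60%) a CHR match. CCAAT was held by 17 of 20 G2/M to spindle promoters (85%) and by 64.7% of the replication to G1/S promoters. Over all 32851 promoters of the same length the shares were 9.57% for E2F, 37.4% for CCAAT and 17.9% for CHR.

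Mcm6 (helicase subunit, chr1:128359656-128359955, minus strand) is shown as a replication promoter with E2F matches, Cdk1 (the mitotic kinase, chr10:69352863-69353162, minus strand) as a promoter with all 3 motifs, Top2a (topoisomerase II alpha, chr11:99024140-99024439, minus strand) and Cenpa (centromeric histone H3, chr5:30666636-30666935, plus strand) as division promoters with CCAAT and CHR, and Mad2l1 (spindle checkpoint, chr6:66534971-66535270, plus strand) as a promoter with none of them. Each is printed 5′ to 3′ in the direction of the gene, with matched letters on either strand in capitals.
Mcm6: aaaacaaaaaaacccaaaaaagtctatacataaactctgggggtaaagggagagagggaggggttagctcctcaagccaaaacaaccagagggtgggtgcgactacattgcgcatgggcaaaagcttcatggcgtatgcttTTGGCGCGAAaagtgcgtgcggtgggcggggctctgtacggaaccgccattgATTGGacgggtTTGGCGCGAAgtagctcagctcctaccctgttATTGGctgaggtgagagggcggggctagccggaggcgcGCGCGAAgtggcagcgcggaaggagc
Cdk1: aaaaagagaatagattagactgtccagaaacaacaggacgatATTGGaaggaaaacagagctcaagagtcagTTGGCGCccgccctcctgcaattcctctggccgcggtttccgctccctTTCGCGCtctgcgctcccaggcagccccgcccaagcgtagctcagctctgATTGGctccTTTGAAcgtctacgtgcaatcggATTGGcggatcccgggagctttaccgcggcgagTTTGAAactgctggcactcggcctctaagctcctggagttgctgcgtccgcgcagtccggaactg
Top2a: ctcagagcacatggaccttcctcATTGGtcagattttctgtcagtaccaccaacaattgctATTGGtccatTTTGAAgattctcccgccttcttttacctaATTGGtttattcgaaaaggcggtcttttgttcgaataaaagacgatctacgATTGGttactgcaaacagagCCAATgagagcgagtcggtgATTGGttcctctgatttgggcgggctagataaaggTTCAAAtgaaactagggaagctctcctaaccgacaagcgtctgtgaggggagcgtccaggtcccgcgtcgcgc
Cenpa: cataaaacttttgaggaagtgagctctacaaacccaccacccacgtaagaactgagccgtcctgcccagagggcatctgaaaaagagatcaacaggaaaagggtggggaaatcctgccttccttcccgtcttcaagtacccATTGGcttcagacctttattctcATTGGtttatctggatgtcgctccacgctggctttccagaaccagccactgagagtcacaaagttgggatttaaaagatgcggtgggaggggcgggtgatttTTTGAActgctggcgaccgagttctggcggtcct
Mad2l1: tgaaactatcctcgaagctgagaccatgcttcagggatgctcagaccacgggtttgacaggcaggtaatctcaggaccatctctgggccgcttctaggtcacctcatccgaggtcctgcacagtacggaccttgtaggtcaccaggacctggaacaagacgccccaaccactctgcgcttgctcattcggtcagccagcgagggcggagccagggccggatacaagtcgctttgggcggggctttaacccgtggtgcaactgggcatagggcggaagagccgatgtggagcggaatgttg

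In these promoters Mcm6 held 5 E2F matches, some of them overlapping, and 2 CCAAT matches, Cdk1 held 2 E2F, 3 CCAAT and 2 CHR matches, Top2a held 6 CCAAT and 2 CHR matches, and Cenpa held 2 CCAAT matches and 1 CHR match. The levels of these genes are given below under their roles.

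The level of a gene is its normalized signal on a log2 scale, after background correction and quantile normalization, at its brightest probe that passed the filter. Levels may be compared between mice for 1 gene but not between genes, because probes differ in brightness. A difference is a difference of mean levels between genotypes. A gene is said to have risen or fallen where limma's moderated test gave an adjusted p under 0.05 over all 20573 kept probes. The test used 1 spread per probe, pooled over the 3 genotypes and drawn toward the spread typical of all kept probes. The 2 mice of a genotype came from different litters, so that spread includes any difference between the litters.

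H3f3b itself had levels of 4.43 and 4.28 in the KO mice, 11.10 and 10.96 in HET and 11.78 and 11.73 in WT. The KO arrays did not detect it. Summed signal per array was 17052200 to 17222800 in KO, 15427300 to 17674400 in HET and 17104800 to 17273300 in WT mice, and pairwise array correlations were between 0.982 and 0.993. Marker transcripts of some testis cell types also differed between KO and WT. Of 23 measured Sertoli cell markers 8 rose in KO against WT, where 2.64% of all genes rose. Their summed linear level was 42523 to 44268 in KO, 33135 to 33393 in HET and 28934 to 30149 in WT. Of 12 round spermatid markers 4 fell (Catsper3, Crem, Izumo1 and Sun5), where 4.98% of all genes fell. Their sums were 28432 to 30534 in KO, 36102 to 39687 in HET and 35821 to 42341 in WT, so HET and WT overlapped. These cells differ in how much they divide. In whole tissue, fewer cells of a type and less RNA per cell cannot be told apart, and the part of cell composition in the differences below was not tested.

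In KO against WT testes, 1 of the 35 measured members rose and none fell. The member that rose was Mcm4, which encodes a helicase subunit. It is 2.86% of the measured members. Of all genes 7.63% passed, 2.64% that rose and 4.98% that fell (6.91% of probes), so the share of members that rose was near the background. At an unadjusted p under 0.05, 11 of 35 members were higher (31.4%, against 15.2% of all genes) and 0 were lower (14.4% of all genes; 29.5% in both directions). Differences were positive for 25 members and negative for 10, with a median of 0.15, against 0.05 over all genes. Of all 14524 genes, 8137 were positive and 6387 negative. Both KO mice exceeded both WT mice for 18 members (51.4%, against 33.1% of all genes), and both lay under both WT mice for 3 (8.57%, against 25.6%). For the other 14 the groups overlapped. Within litter 1 the members' median difference was 0.16, and within litter 2 it was 0.23. The sign was positive in both litters for 21 members (all genes 40.9%), negative in both for 5 (31.2%) and mixed for 9.

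In HET against WT testes none of 14524 genes passed the adjusted threshold (0% of all genes, while 8.34% had an unadjusted p under 0.05 with limma). H3f3b itself, with 1 copy deleted in HET mice, did not pass (HET minus WT -0.73, adjusted p = 0.419). The absence of calls is therefore not an absence of differences. Of the 35 members, 4 were higher and 1 was lower at an unadjusted p under 0.05, against 4.43% and 3.90% of all genes. The median difference was 0.09 (all genes 0.01), and 27 members were positive (7500 of all 14524 genes were). Both HET mice exceeded both WT mice for 14 members (21.5% of all genes did) and lay under them for 2 (18.3% of all genes). In KO against HET testes no member passed either, while 0.138% of all genes did (0.0275% higher and 0.110% lower). These were 23 probes (0.112%), and 69 with litter as a replicate block. At an unadjusted p under 0.05, 2 members were higher and 1 was lower in KO, against 9.65% and 10.4% of all genes (20.0% in both directions). The median difference was 0.08 (all genes 0.03). The KO mice did not overlap the HET mice for 14 members on the higher side (29.0% of all genes) and 6 on the lower side (24.6%). The comparisons share mice: both against WT use the same WT arrays, and both with KO use the same KO arrays.

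Among the 35 members, 2 passed the filter through 1 genotype alone, Ttk through HET and Tk1 through KO, so that their direction is partly set by the filter. Over the 33 members detected on all 6 arrays, a count made after the values were seen, 24 were positive in KO minus WT with a median of 0.15, and 14 were at 0.30 or above. Both KO mice exceeded both WT mice for 18 of the 33 (all genes 33.1%) and lay under both for 3 (25.6%). In HET against WT the groups did not overlap for 13 on the higher side (21.5%) and 2 on the lower side (18.3%), with a median of 0.10. In KO against HET they did not overlap for 13 (29.0%) and 5 (24.6%), with a median of 0.08. These shares are over all genes tested, and none was computed for genes detected on all 6 arrays.

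**Figure D1:**
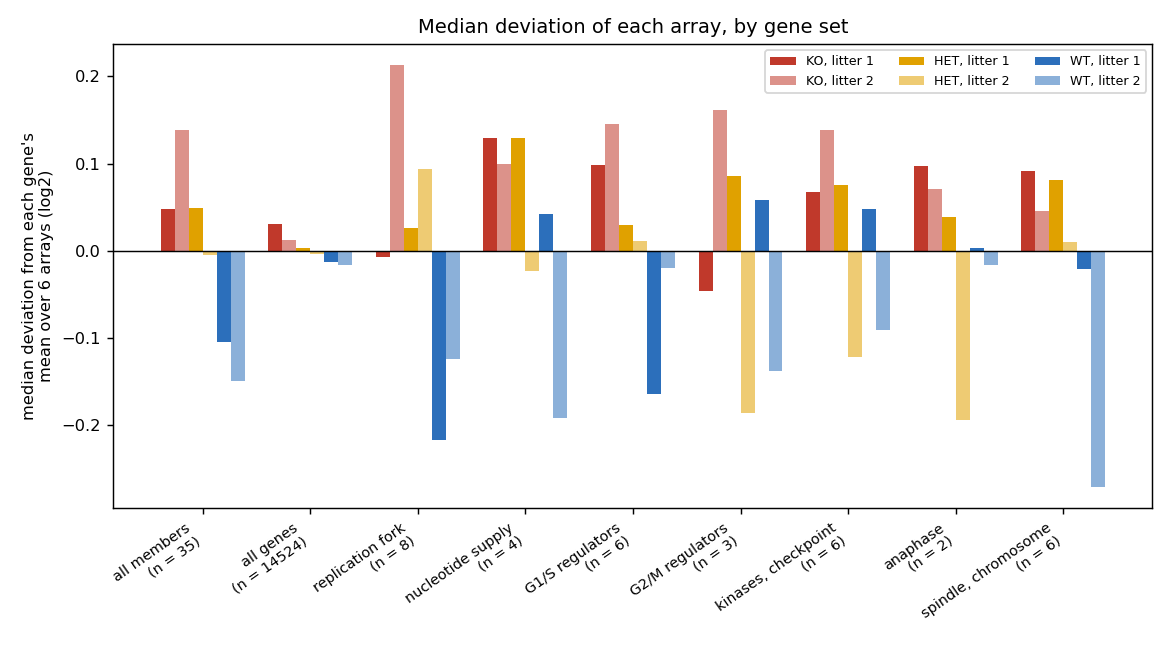
Each bar is the median, over the genes of a set, of a mouse's deviation from the gene's mean over 6 arrays (log2), with KO, HET and WT mice from left to right, litter 1 dark and litter 2 light. Over the 35 measured members the medians were 0.05 and 0.14 in KO, 0.05 and -0.00 in HET and -0.11 and -0.15 in WT, while those of all 14524 genes stayed between -0.02 and 0.03.

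The plot of median deviations by mouse sets the 6 mice side by side. Both WT mice lay lowest for the members, and the HET mouse of litter 1 lay level with the KO mouse of litter 1. The HET mean lay between the KO and WT means for 19 of 35 members (54.3%, against 50.8% of all genes). The order KO over HET over WT was held by 17 members (48.6%, against 28.1% of all genes), and the opposite order by 2 (5.71%, against 22.7%).

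**Figure D2:**
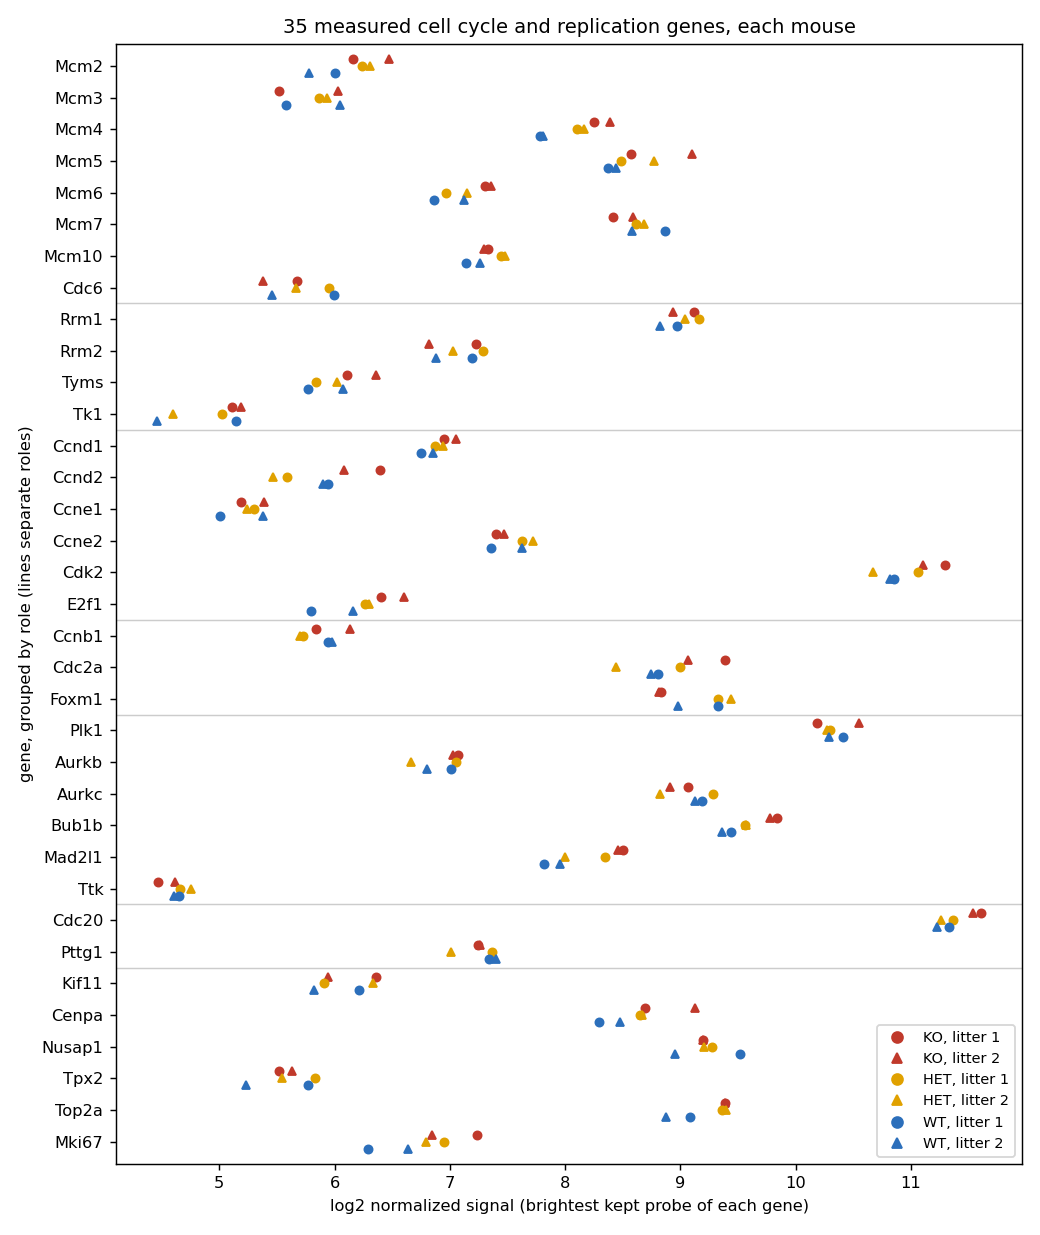
Log2 normalized signal of the 35 measured members in each mouse (KO above HET above WT within a gene; circles litter 1, triangles litter 2), with grey lines between roles. Both KO mice lie above both WT mice for Mcm4 (8.25 and 8.39 in KO, 7.78 and 7.81 in WT), whereas KO, HET and WT mice are mixed for Plk1.

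The replication group comes first. Its 8 measured members had a median KO minus WT difference of 0.23, HET minus WT of 0.16 and KO minus HET of -0.04. Mcm4, a subunit of the MCM2 to MCM7 ring that unwinds DNA at the fork, had levels of 8.25 and 8.39 in the KO mice, 8.10 and 8.16 in HET and 7.78 and 7.81 in WT. Every KO mouse was above every HET mouse, and every HET mouse was above every WT mouse. The KO minus WT difference was 0.52 (SE 0.13, adjusted p = 0.0475, limma), HET minus WT was 0.34 (adjusted p = 0.523) and KO minus HET was 0.19 (adjusted p = 0.465). These values come from 1 of 3 Mcm4 probes, and the other probes were not detected on any array. The KO against WT call was lost when any 1 mouse was left out. Leaving out a HET mouse did so with the difference unchanged at 0.52. The loss therefore does not show that the call rested on 1 mouse.

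The other ring subunits did not share 1 direction. Mcm2 had 6.16 and 6.47 in KO, 6.23 and 6.31 in HET and 6.004 and 5.77 in WT, so that WT was lowest and KO and HET overlapped (KO minus WT 0.43, adjusted p = 0.117; HET minus WT 0.38, adjusted p = 0.532). Mcm5 had 8.57 and 9.10 in KO, 8.48 and 8.77 in HET and 8.37 and 8.44 in WT, with a KO minus WT difference of 0.44 (adjusted p = 0.173). Mcm6, the promoter of which is printed above, had 7.31 and 7.36 in KO, 6.97 and 7.15 in HET and 6.86 and 7.12 in WT (KO minus WT 0.34, adjusted p = 0.171). In these 3 genes both KO mice were above both WT mice, and none passed the test. Mcm7 went the other way, with 8.41 and 8.59 in KO, 8.61 and 8.69 in HET and 8.87 and 8.58 in WT (KO minus WT -0.22, adjusted p = 0.363), and the KO and WT mice overlapped. A second Mcm7 probe gave a like KO minus WT difference (-0.23) but put HET lowest. It had 7.91 and 8.23 in KO, 7.85 and 7.86 in HET and 8.14 and 8.46 in WT. KO minus HET was 0.22 on that probe and -0.15 on the brightest. Mcm3 had 5.52 and 6.03 in KO, 5.86 and 5.93 in HET and 5.58 and 6.04 in WT, a KO minus WT difference of -0.04, and the HET mice lay within the range of the others.

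Cdc6, which loads the MCM ring, had 5.67 and 5.38 in KO, 5.95 and 5.67 in HET and 5.99 and 5.46 in WT (KO minus WT -0.20, adjusted p = 0.550). Its 2 WT mice were further apart than the genotype means. Mcm10, which helps start the fork, had a KO minus WT difference of 0.12 and a HET minus WT difference of 0.26 (adjusted p = 0.606). Cdt1, the partner of Cdc6, has no probe under its listed symbol, but a probe under an older symbol of the gene gave 6.15 and 6.39 in KO, 5.92 and 6.04 in HET and 5.67 and 5.93 in WT (KO minus WT 0.47, adjusted p = 0.0937). Both KO mice were above all other mice for that probe.

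The enzymes that supply nucleotides had a median KO minus WT difference of 0.22 over 4 members, and none passed. Rrm1, the large subunit of ribonucleotide reductase, had 9.12 and 8.94 in KO, 9.16 and 9.04 in HET and 8.97 and 8.82 in WT (KO minus WT 0.13, adjusted p = 0.581). Its partner Rrm2 differed by -0.01 between KO and WT. Tyms, thymidylate synthase, differed by 0.31 (adjusted p = 0.245), and Tk1, thymidine kinase, by 0.35 (adjusted p = 0.352) with levels of 5.11 and 5.19 in KO, 5.02 and 4.60 in HET and 5.14 and 4.46 in WT. Tk1 was detected on 2 KO arrays but on 1 HET and 1 WT array, so it passed the filter through KO, and without it the median of this group was 0.13.

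Among G1/S regulators the median KO minus WT difference was 0.26 over 6 members. E2f1, an activating E2F factor, had 6.40 and 6.60 in KO, 6.27 and 6.30 in HET and 5.80 and 6.16 in WT. Both KO mice were above both HET mice, which were above both WT mice (KO minus WT 0.53, SE 0.16, adjusted p = 0.0758). Cdk2, the kinase that acts with cyclin E and is also needed in meiosis, had 11.30 and 11.10 in KO, 11.06 and 10.67 in HET and 10.86 and 10.82 in WT (KO minus WT 0.36, adjusted p = 0.183). The KO mice were highest, and the HET mouse of litter 2 was lowest of all. The other 3 Cdk2 probes gave KO minus WT differences of 0.12, 0.18 and 0.18.

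Ccnd2, a D-type cyclin expressed in differentiating spermatogonia, had a pattern of its own. Its levels were 6.39 and 6.08 in KO, 5.59 and 5.46 in HET and 5.94 and 5.90 in WT. The 3 genotypes did not overlap, and HET was the lowest of them. KO minus HET was 0.71 (SE 0.15, adjusted p = 0.0828), KO minus WT was 0.32 (adjusted p = 0.201) and HET minus WT was -0.39 (adjusted p = 0.514). None of the 3 passed. A second, dimmer Ccnd2 probe gave smaller differences, KO minus HET of 0.25 and KO minus WT of 0.14, and on it the KO and WT mice overlapped (5.62 and 5.37 in KO, 5.22 and 5.28 in HET, 5.33 and 5.39 in WT). The other cyclins of this group, Ccnd1, Ccne1 and Ccne2, had KO minus WT differences between -0.05 and 0.20. Ccne2 had 7.40 and 7.47 in KO, 7.62 and 7.72 in HET and 7.36 and 7.62 in WT. Both KO mice lay below both HET mice for Ccne2 (KO minus HET -0.23, adjusted p = 0.401), while WT overlapped both.

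The G2/M group had 3 measured members. Cdk1, listed on the array as Cdc2a, had 9.39 and 9.07 in KO, 8.99 and 8.44 in HET and 8.80 and 8.75 in WT (KO minus WT 0.45, SE 0.19, adjusted p = 0.168). Both KO mice were above the other 4. The KO minus HET difference was 0.51 (adjusted p = 0.204), and the 2 HET mice spanned the WT mice. Ccnb1, the cyclin that pairs with Cdk1, had 5.84 and 6.13 in KO, 5.72 and 5.70 in HET and 5.95 and 5.98 in WT. Its KO minus WT difference was 0.03 and its HET minus WT difference was -0.25 (adjusted p = 0.651). On a second, dimmer Ccnb1 probe both HET mice lay above both WT mice instead. That probe gave a HET minus WT difference of 0.21 and a KO minus WT difference of 0.22.

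Foxm1, a transcription factor of the G2/M wave, had 8.84 and 8.82 in KO, 9.33 and 9.44 in HET and 9.32 and 8.98 in WT. Both KO mice were below the other 4, and HET reached the highest value. Its KO minus HET difference was -0.56 (SE 0.15, adjusted p = 0.120) and its KO minus WT difference was -0.33 (adjusted p = 0.197). It was the single member lower in KO than in HET at an unadjusted p under 0.05.

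Of the mitotic kinases and spindle checkpoint genes, 6 were measured, with a median KO minus WT difference of 0.08. Mad2l1, which holds back anaphase until chromosomes are attached, had 8.50 and 8.46 in KO, 8.35 and 7.99 in HET and 7.81 and 7.96 in WT. Every KO mouse was above every HET mouse and every HET mouse above every WT mouse. The KO minus WT difference of 0.60 (SE 0.15) was the largest of all members, with an adjusted p of 0.0518. A second kept Mad2l1 probe did not show that order: it had 6.42 and 6.49 in KO, 6.20 and 5.97 in HET and 6.26 and 6.23 in WT. There KO was again highest (KO minus WT 0.21, adjusted p = 0.358), but both HET mice lay below both WT mice (HET minus WT -0.17). Bub1b, another checkpoint protein, had 9.84 and 9.78 in KO, 9.56 and 9.57 in HET and 9.44 and 9.36 in WT, also without overlap (KO minus WT 0.41, SE 0.13, adjusted p = 0.0821). A second Bub1b probe gave -0.05.

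Polo-like and Aurora kinases gave small differences. Plk1, which acts throughout division, had 10.18 and 10.55 in KO, 10.30 and 10.27 in HET and 10.41 and 10.29 in WT (KO minus WT 0.01, adjusted p = 0.972), and the groups overlapped. Aurkc, the Aurora kinase of meiotic germ cells, had 9.06 and 8.91 in KO, 9.28 and 8.82 in HET and 9.19 and 9.13 in WT (KO minus WT -0.17, adjusted p = 0.546). Aurkb differed by 0.15 (adjusted p = 0.593). Aurka, read at a probe under an older symbol, had 10.84 and 10.56 in KO, 10.66 and 10.36 in HET and 10.58 and 10.52 in WT (KO minus WT 0.15, adjusted p = 0.579). Ttk, a checkpoint kinase, was near background. Its kept probe was detected on both HET arrays and no other, with levels of 4.47 to 4.76 over all mice, and its other probe was detected on 1 KO array and on neither HET array.

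Cdc20, which activates the anaphase-promoting complex, had 11.61 and 11.54 in KO, 11.37 and 11.26 in HET and 11.33 and 11.23 in WT (KO minus WT 0.30, adjusted p = 0.182). The KO mice were above all other mice, and HET and WT overlapped. The other 3 Cdc20 probes gave KO minus WT differences of 0.36, 0.17 and 0.07. Pttg1, securin, had 7.24 and 7.26 in KO, 7.37 and 7.01 in HET and 7.34 and 7.40 in WT, with a KO minus WT difference of -0.12 (adjusted p = 0.661).

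The spindle, kinetochore and chromosome genes had a median KO minus WT difference of 0.27 over 6 members, and of 0.23 for HET minus WT. Mki67, a protein that coats mitotic chromosomes and marks cycling cells, had 7.24 and 6.84 in KO, 6.95 and 6.79 in HET and 6.29 and 6.64 in WT (KO minus WT 0.57, SE 0.18, adjusted p = 0.0825). Cenpa had 8.69 and 9.13 in KO, 8.65 and 8.67 in HET and 8.29 and 8.47 in WT (KO minus WT 0.53, SE 0.17, adjusted p = 0.0845). In both genes KO and HET mice lay above the WT mice.

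At its brightest probe Top2a, which untangles sister DNA, separated WT from both other genotypes. It had 9.39 and 9.39 in KO, 9.36 and 9.39 in HET and 9.09 and 8.87 in WT, a KO minus WT difference of 0.41 (SE 0.14, adjusted p = 0.0960) and a HET minus WT difference of 0.40 (adjusted p = 0.504). KO and HET differed by 0.01. A second, dimmer Top2a probe did not place WT lowest. It had 5.38 and 5.08 in KO, 5.296 and 5.24 in HET and 5.38 and 5.301 in WT. There the KO minus WT difference was -0.11, and both HET mice lay below both WT mice (HET minus WT -0.07). Kif11, a spindle motor, Nusap1, a spindle-associated protein, and Tpx2, a microtubule nucleation factor, had KO minus WT differences of 0.13, -0.04 and 0.07, with overlapping mice.

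**Figure D3:**
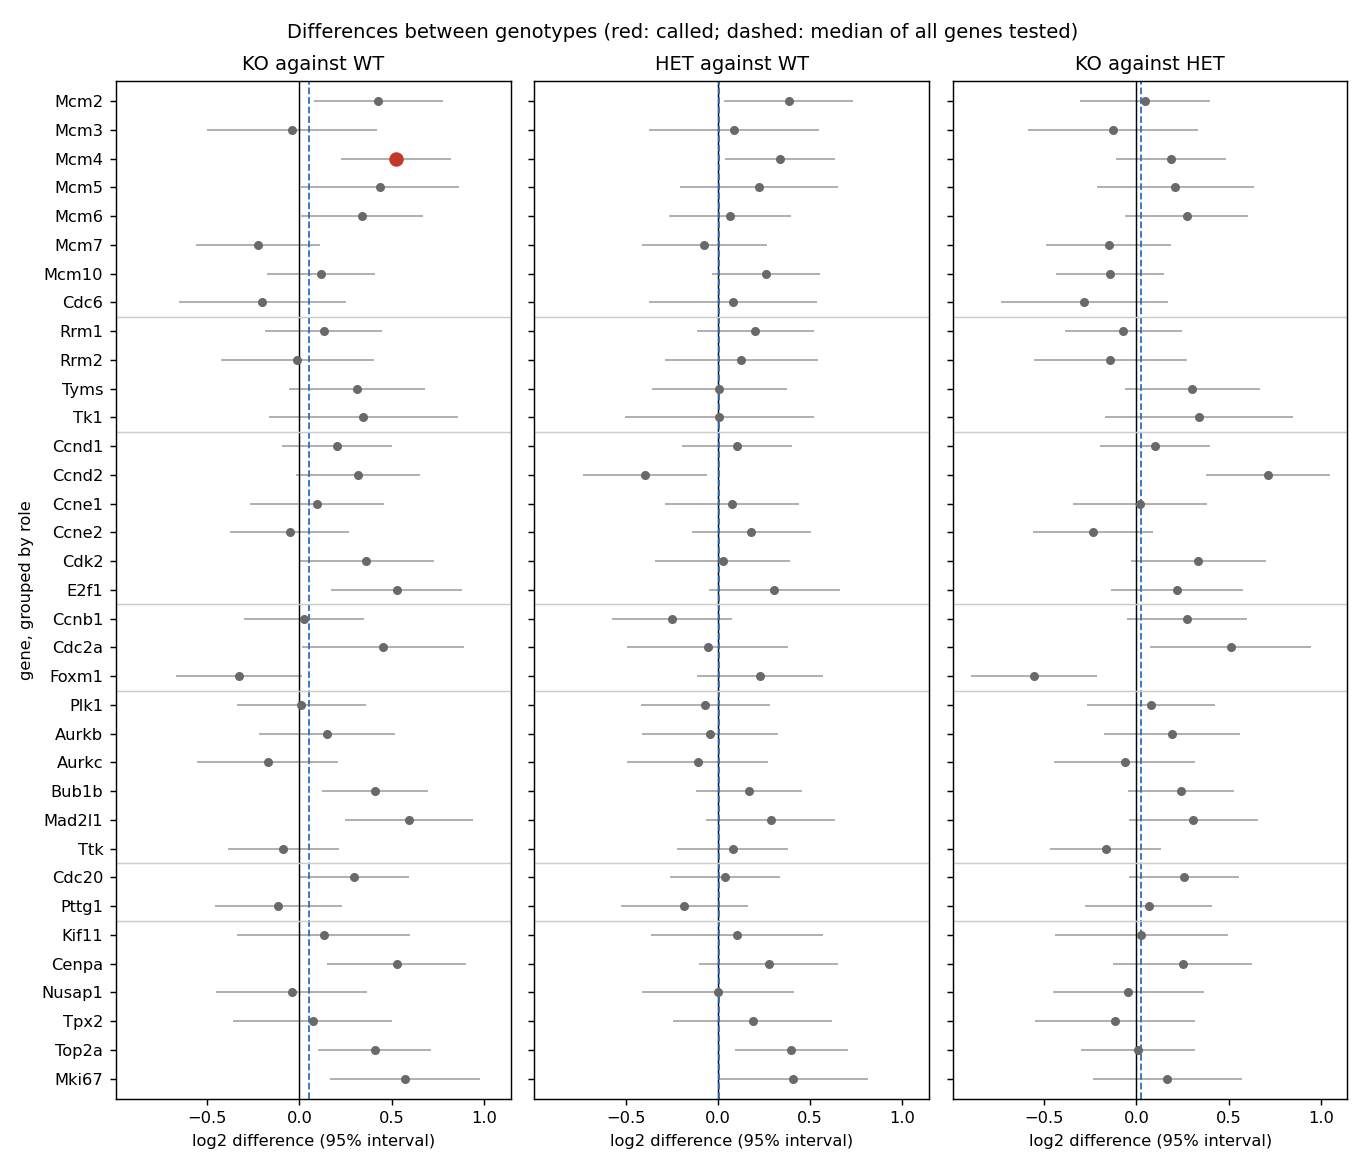
Differences in log2 normalized signal between genotypes for the 35 measured members, with 95% intervals of the fit as bars, red for the called gene and a dashed line at the median of all genes tested. KO minus WT ranged from -0.33 for Foxm1 to 0.60 for Mad2l1, and Mcm4 is the single red point.

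Of the 35 KO minus WT differences, 15 were at 0.30 or above and 9 were within 0.10 of 0, as the plot of differences by gene shows. Read by promoter, the 10 measured members with a CHR match had a median KO minus WT difference of 0.41, of which 9 were positive, and the 18 without had a median of 0.11. The 11 with an E2F match had a median of 0.13 and the 17 without had 0.30. For CCAAT the medians were 0.21 with a match and 0.20 without. These groupings were formed after the values were seen and were not tested. They leave out the measured members without a promoter entry, which were Aurkb, Ccnd1, Ccnd2, Ccne2, Foxm1, Mcm4 and Tpx2. Ttk is in the group with a CHR match and Tk1 in the groups without a match. Both passed the filter through 1 genotype alone.

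Members that did not pass the filter were Gmnn, Pcna, Ccna2, Ccnb2, Cdc25b, Bub1, Ube2c, Kif20a and Cenpe. Their 12 probes had deposited signals between 81.5 and 105.1, near background, so no difference is given for them. Pcna was detected on 2 arrays and Cdc25b on 1. The arrays did not show whether these genes are expressed in the testis or lie under the detection limit of the probes. Several members had more than 1 kept probe (17 of 35). All kept probes of a gene had the same sign in KO against WT for 13 of them and not for 4, which were Mcm3, Ccnd1, Bub1b and Top2a. Over the 58 kept probes 40 were positive and 1 was called.

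Precision was limited by 2 mice per group. The 95% interval of a difference had a median half-width of 0.35 (log2). In 16 of the 35 KO minus WT differences the interval lay within 1.5-fold in either direction, and in all 35 it lay within 2-fold. In HET minus WT it lay within 1.5-fold for 25 members.

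The wider pathway was read from a list of 165 further genes, of which 133 were measured. In KO against WT, 3 rose (2.26%, against 2.64% of all genes) and 4 fell (3.01%, against 4.98%), so neither share exceeded the background. The median difference was 0.14 and 91 were positive (8137 of all 14524 genes were). Among 41 other replication genes 2 rose (4.88%) and none fell. Cdc7, the kinase that fires origins, had 9.17 and 8.86 in KO, 8.82 and 8.75 in HET and 8.23 and 8.43 in WT (0.69, adjusted p = 0.0349). Rfc5, a subunit of the clamp loader, had 6.54 and 6.43 in KO, 6.17 and 5.92 in HET and 5.80 and 5.90 in WT (0.64, adjusted p = 0.0356). In both genes every KO mouse was above every HET mouse and every HET mouse above every WT mouse.

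Among 21 other G1/S genes 3 fell (14.3%, against 4.98% of all genes) and none rose. Rbl2, a pocket protein that holds back E2F targets in resting cells, had 7.39 and 7.79 in KO, 8.31 and 8.41 in HET and 8.71 and 9.02 in WT (-1.27, adjusted p = 0.0114). E2f5, an E2F factor that acts as a repressor with pocket proteins, had 7.15 and 7.32 in KO, 7.56 and 7.71 in HET and 8.01 and 7.83 in WT (-0.69, adjusted p = 0.0291). Ccnd3, a D-type cyclin, had 9.40 and 9.88 in KO, 10.08 and 10.46 in HET and 10.32 and 10.60 in WT (-0.82, adjusted p = 0.0443). In all 3 both KO mice were lowest. HET lay between KO and WT, overlapping WT in Ccnd3.

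None of the 61 other G2/M and spindle genes passed, and their median difference was 0.12. Among 10 germ-cell cyclin and meiotic division genes, Cdk16, a kinase needed late in sperm formation, rose (8.11 and 7.98 in KO, 7.82 and 7.72 in HET, 7.38 and 7.45 in WT, a difference of 0.63, adjusted p = 0.0306), and Rec8, a meiotic cohesin, fell (8.61 and 9.01 in KO, 9.27 and 9.52 in HET, 9.45 and 9.76 in WT, a difference of -0.79, adjusted p = 0.0372). None of the 133 passed in HET against WT or in KO against HET, where the medians were 0.08 and 0.05. With litter as a replicate block, Mcmbp (0.50, adjusted p = 0.0453), Kifc1 (0.58, adjusted p = 0.0384) and Cdc25c (-0.67, adjusted p = 0.0269) also passed in KO against WT, where limma without the block gave adjusted p of 0.0528, 0.0597 and 0.0639. Some or all of the 7 calls were lost when any 1 mouse was left out. Leaving out a HET mouse lost Cdc7, Ccnd3 and Rec8, although it does not change a KO minus WT difference. For these genes the losses therefore do not show that a call rested on 1 mouse. The same reasoning does not reach Rfc5, E2f5, Rbl2 and Cdk16, because leaving out a HET mouse did not lose them. Whether those calls rested on 1 mouse was not tested.

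**Figure D4:**
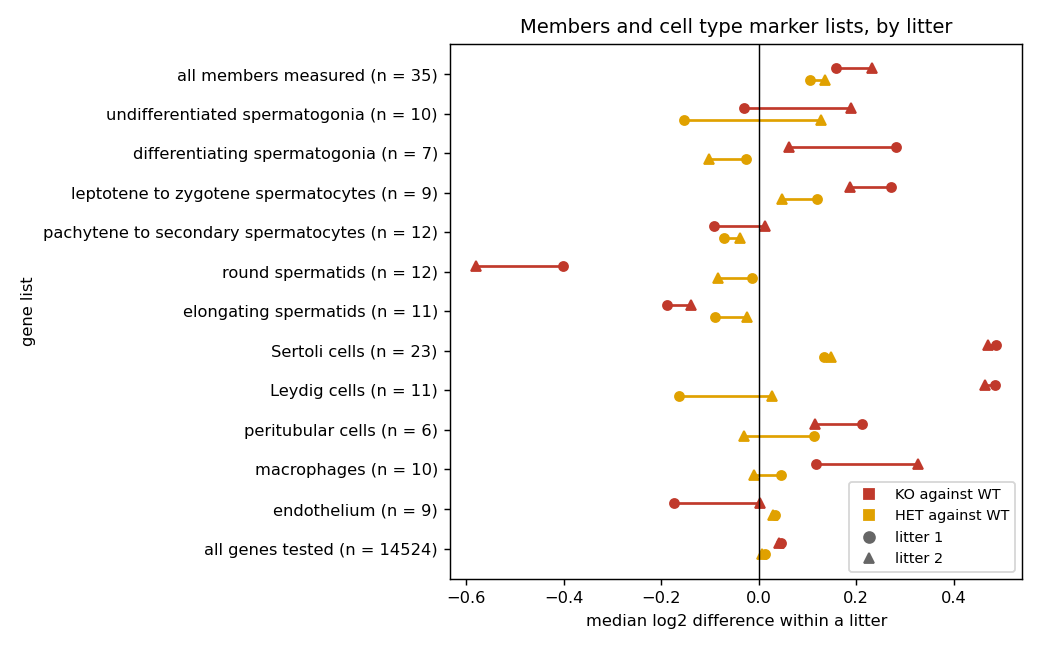
Median log2 difference within each litter of the members, of testis cell type marker lists and of all genes tested, for KO against WT (red) and HET against WT (yellow), with a circle for litter 1, a triangle for litter 2 and a line joining them. For KO against WT the members lie at 0.16 and 0.23, Sertoli cell markers at 0.49 and 0.47 and round spermatid markers at -0.40 and -0.58.

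The plot of marker lists gives the cell types beside the members. Leydig markers had 4 genes that rose and 1 that fell of 11 in KO against WT (all genes 2.64% and 4.98%), and a median of 0.54. Undifferentiated spermatogonia had a median of 0.02 with 1 of 10 lower (Lhx1), differentiating spermatogonia 0.17 with 0 of 7 called, leptotene to zygotene spermatocytes 0.20 with Rec8 fallen of 9, and pachytene to secondary spermatocytes -0.07 with 0 of 12 called. The summed levels of differentiating spermatogonia markers were 1054 to 1132 in KO, 1023 to 1042 in HET and 900 to 918 in WT. Ccnd2 and Aurkc are both members and markers of these lists. Elongating spermatid markers had a median of -0.17 with 0 of 11 called, peritubular cell markers 0.16 with 0 of 6, and endothelium -0.07 with 0 of 9. Macrophage markers had a median of 0.25 with 2 of 10 risen. Their summed level went the other way, with 4135 and 4415 in KO, 4483 and 4649 in HET and 5159 and 5111 in WT. Whether the shares of these cells account for the members' differences was not tested.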

How the data were processed

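Whole-testis RNA of 6 mice was measured on Illumina bead arrays. The deposited table held 2 columns per array, per the file headers: a bead intensity, linear and not normalized between arrays, and a detection p-value. The submitters' processing notes name GenomeStudio. A second deposited table held intensity values that matched the first after a constant scaling per array, which was found from the values. Depth has no counterpart on arrays, and 2 mice per group limit the precision.

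Here, background was corrected with limma 3.58.1 in R 4.3.3 (normexp from detection p-values, offset 16), then signals were quantile normalized and set on a log2 scale. Probes needed a detection p under 0.05 in both mice of some genotype. lmFit and eBayes were run on the 6 arrays together, with no term but genotype (two-sided), with Benjamini-Hochberg adjustment over 20573 probes. A gene was read at its brightest kept probe. Symbols were updated through a RefSeq table of GRCm38.p6: of 31508, 13424 were current, 8144 were updated and 9940 were left as deposited. The fit was tested on simulated data.

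The labels state the litter of each mouse, and the litter was used here as the replicate number, so numbers pair the mice. Differences between litters correlated at 0.168 between KO and HET, 0.134 between KO and WT and 0.0911 between HET and WT across probes. The members and lists were chosen with earlier results of these data known. Values per mouse were given for members called in any comparison, for the 3 members with the smallest p in each direction in each comparison, and for the brightest of each role; other members named were chosen after their values were seen. Other pathway genes were named where called. Alternatives were the litter block, background, normalization, filter, intensity trend, the second table, probe averaging and leaving out each mouse.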

Additional observations from a re-analysis of the deposited data

How the results depend on the processing

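Over 17 settings the members' median KO minus WT difference stayed positive, between 0.09 and 0.27, and exceeded the median of all probes by 0.08 to 0.20. Members were read at their brightest probe. All genes read in that way had a median of 0.05 in the reported setting, above the 0.04 of all probes. Median scaling moved the median of all probes to 0.12, against 0.04 in the reported setting. The Mcm4 difference ran from 0.40 to 0.65 and passed in 9 of 17 settings. It did not pass with cyclic loess (adjusted p = 0.0694), without a filter on dim probes (0.0537) or without any single mouse: limma's adjusted p was 0.127 and 0.166 when the KO mice of litters 1 and 2 were left out in turn, 0.0711 for either HET mouse, and 0.147 and 0.143 for the WT mice of litters 1 and 2.

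In KO against WT, 1421 probes, 1 member and 7 other pathway genes passed. Those counts were 2854, 6 and 18 with no background correction, 2783, 5 and 19 with offset 50, 2788, 5 and 13 with an intensity trend, 4292, 11 and 41 with the second deposited table, and 530, 0 and 2 without a filter. Members called were 5 with median scaling (16 pathway genes), 0 with cyclic loess and 2 with a detection p under 0.01. Of called probes 32.5% were higher in KO, against 58.4% with median scaling, 23.2% with cyclic loess, 44.5% with no background correction, 42.9% with offset 50 and 68.4% with the second table. The members' median was 0.27 with median scaling, 0.094 with cyclic loess and 0.21 with the second table.

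In HET against WT, 0 probes passed, and 2, 4, 5, 4 and 17 did with no background correction, offset 50, median scaling, an intensity trend and the second table. The members' median was 0.042 and 0.053 with no background correction and offset 50. In KO against HET, 23 probes and 0 members passed. The counts of probes, members and pathway genes were 780, 1 and 4 with no background correction, 699, 2 and 2 with offset 50, 246, 1 and 1 with median scaling, 862, 2 and 5 with an intensity trend, and 1685, 3 and 8 with the second table. Without a filter 2 probes passed, and the members' median was 0.21 with median scaling. With litter as a replicate block 69 probes passed in KO against HET; apart from Mcmbp, Kifc1 and Cdc25c, given above, the block changed no other call among members and pathway genes.

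Without 1 mouse at a time, 22 to 940 probes, 0 members and 0 to 4 pathway genes passed in KO against WT, 0 to 1 probes in HET against WT and 2 to 10 in KO against HET. The members' median was 0.15 to 0.24, 0.060 to 0.15 and 0.047 to 0.15 in these comparisons. A group left with 1 mouse is assumed to vary like the others. The HET minus WT difference of Pttg1 (-0.18) was 3.04e-05 without the HET mouse of litter 2 and -0.36 without that of litter 1. Causes of these changes were not tested.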
